A study of Oryza sativa with 9 samples.

Results

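In young rice panicles, 181 genes were higher in every sample of osmads58 dSpm, a transposon insertion line of the floral regulator gene OsMADS58, and lower in every sample of osmads58 CRISPR, an edited line of the same gene, than in every wild-type sample. They are members of 1 list because of these values: counts were divided by each sample's total count and multiplied by 1000000 (CPM), and a gene entered when its mean over the 9 samples was at least 1 CPM, the 3 groups did not overlap, the dSpm mean was at least 1.5 times the wild-type mean, and the wild-type mean was at least 1.5 times the CRISPR mean. The table holds 56143 genes, of which 20560 averaged 1 CPM or more, and the list is 0.88% of those. Since all 9 samples and both contrasts with the wild type chose the members, their group differences, and the edgeR and DESeq2 calls given for them further on, are a description and support nothing.

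OsMADS58 (LOC_Os05g11414) encodes a C-class MADS box transcription factor, one of the regulators that specify stamens and carpels in the flower. Inside the stamen, microspore mother cells enter meiosis while the surrounding tapetum nourishes the microspores and then breaks down, and reactive oxygen species and the enzymes that handle them are known to be part of that breakdown. A dSpm insertion places a transposon in the gene, whereas Cas9 editing with a frameshift leaves no intact reading frame.

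RNA was taken from panicles of about 1 cm, whose stamens are in early development. The osmads58 dSpm group has 4 samples, named 1, 2, 4b and 5b. The osmads58 CRISPR group has 2 samples, named 1 and 2. The wild type (WT) has 3 samples, named 1 to 3. GEO's genotype field gives osmads58-/- for both mutant groups, and only the sample titles tell them apart (58Z and 58CRIS). The 58Z samples were taken as the dSpm line, the only other osmads58 line in the study's sequencing. By the study's account the dSpm line is fertile and the CRISPR lines are male sterile, and each CRISPR sample pools panicles of several homozygous plants of 1 of 2 independent transgenic lines. Its methods add that only some CRISPR homozygotes were completely sterile, and that the CRISPR material used came from such plants. The CRISPR samples were thus chosen by phenotype as well as genotype, and these cannot be told apart below. No treatment was applied to any group. By the study's methods the WT samples came from 3 lines and the dSpm samples from 4. The methods name the japonica cultivar Nipponbare among the plants used, and give paddy fields and a growth chamber as growth settings. Which samples grew where is not stated. Whole panicles hold many cell types, so fewer cells of a type and less RNA per cell cannot be told apart in any value below.

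OsMADS58 itself was lower in both lines. It had 1.94, 0.721, 1.87 and 2.1 CPM in dSpm 1, 2, 4b and 5b, and 0.295 and 0.525 CPM in CRISPR 1 and 2, against 7.36, 3.15 and 3.84 CPM in WT 1, 2 and 3. The 3 groups did not overlap, in the order WT, dSpm, CRISPR, which is not the order of the members. A frameshift need not lower a transcript, so the count checks the labels only in part.

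Totals per sample lay between 65192657 and 83042245 counts, so 3 counts, the limit taken for a count of 0, are 0.0361 to 0.0460 CPM depending on the sample. All 30 meiotic genes listed by the study averaged 1 CPM or more, and their summed level was 663 and 782 CPM in dSpm 1 and 2, 1193 and 1215 CPM in dSpm 4b and 5b, 844 and 941 CPM in CRISPR 1 and 2, and 841, 877 and 876 CPM in WT 1, 2 and 3. The dSpm pairs 1 and 2 and 4b and 5b thus stand on either side of the other samples in these genes. The 9 photosynthetic genes of the study summed to 107 to 134 CPM in dSpm, 139 and 166 CPM in CRISPR, and 85.5 to 101 CPM in WT. Such genes mark green tissue, but by RT-qPCR the study also found photosynthetic targets of OsMADS58 raised in dSpm and more so in CRISPR. Those readings cannot be told apart here. Over all genes, the deviations of dSpm 1 and WT 1 from their group means correlated at 0.59, while dSpm 2 and WT 2 gave 0.17. WT 1 and dSpm 1 are therefore followed by name below, and the part of stage, green tissue or sample source in the results was not tested.

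The list is 1 of 6 possible orders of the 3 groups. When the same thresholds were applied to every order, dSpm above WT above CRISPR held 181 genes, the largest of the 6 counts. CRISPR above dSpm above WT held 106 genes, 0.516% of the genes at 1 CPM or more, and dSpm above CRISPR above WT held 76, 0.37%. WT above dSpm above CRISPR, the order of OsMADS58 itself, held 63 genes, 0.306%. The mirror image of the list, CRISPR above WT above dSpm, held 32 genes, 0.156%, and WT above CRISPR above dSpm held 13, 0.0632%. So the 2 mutant lines lay on opposite sides of the wild type in 181 genes one way and in 32 the other. Both contrasts share the same 3 WT samples, and WT is the middle group of only these 2 orders. All 6 counts use column sums, which put the median gene above WT in both mutant lines (below). Counts of the other orders under another scaling are not given, so the ranking of the orders holds for this scaling only.

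**Figure D1:**
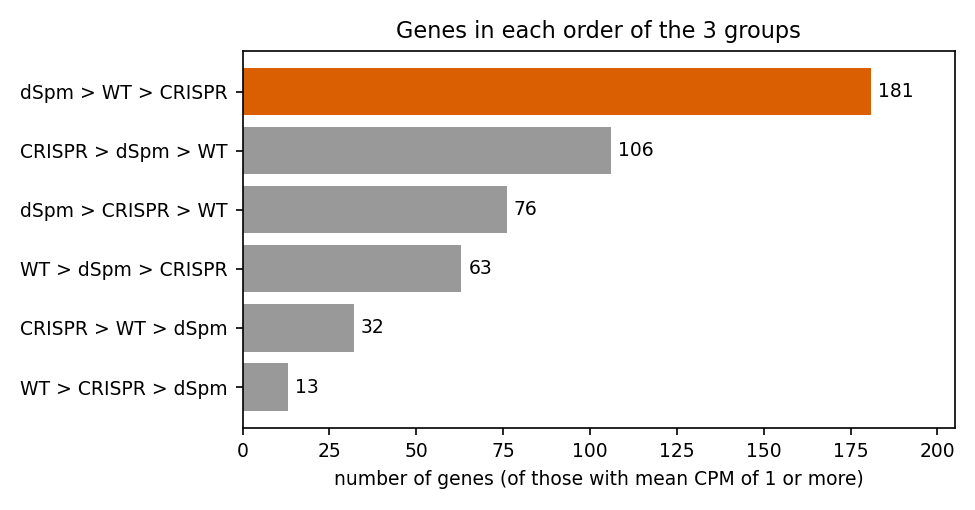
Number of genes, on the horizontal axis, in each of the 6 possible orders of the 3 groups, among genes with a mean of 1 CPM or more, with non-overlapping samples and both fold steps required. The top bar, dSpm above WT above CRISPR, holds the 181 members and its mirror image, CRISPR above WT above dSpm, holds 32 genes.

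The members took a small but very unequal share of each library. Summed over the 181 genes they made up 7016, 7207, 5838 and 6085 CPM in dSpm 1, 2, 4b and 5b, 806 and 807 CPM in CRISPR 1 and 2, and 2938, 2270 and 2155 CPM in WT 1, 2 and 3. The median member had a dSpm mean 2.91 times the WT mean (range 1.51 to 136), beside a median of 1.10 over all genes at 1 CPM or more. The median CRISPR mean was 0.339 of the WT mean (0 to 0.651), beside 1.18 over all genes. Against CRISPR the median dSpm mean was 10.1 times as high (2.39 to 402, over the 178 members with a count in CRISPR). The highest of these ratios, in LOC_Os01g70120, rests on 4 and 0 counts in CRISPR 1 and 2 and is not exact. The dSpm mean was at least 2 times the WT mean in 141 members and at least 10 times in 14, the WT mean was at least 2 times the CRISPR mean in 136 and at least 10 times in 20, and 114 members had at least 2 times at both steps. By level, 82 members averaged at least 10 CPM over the 9 samples and 65 averaged under 5 CPM.

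**Figure D2:**
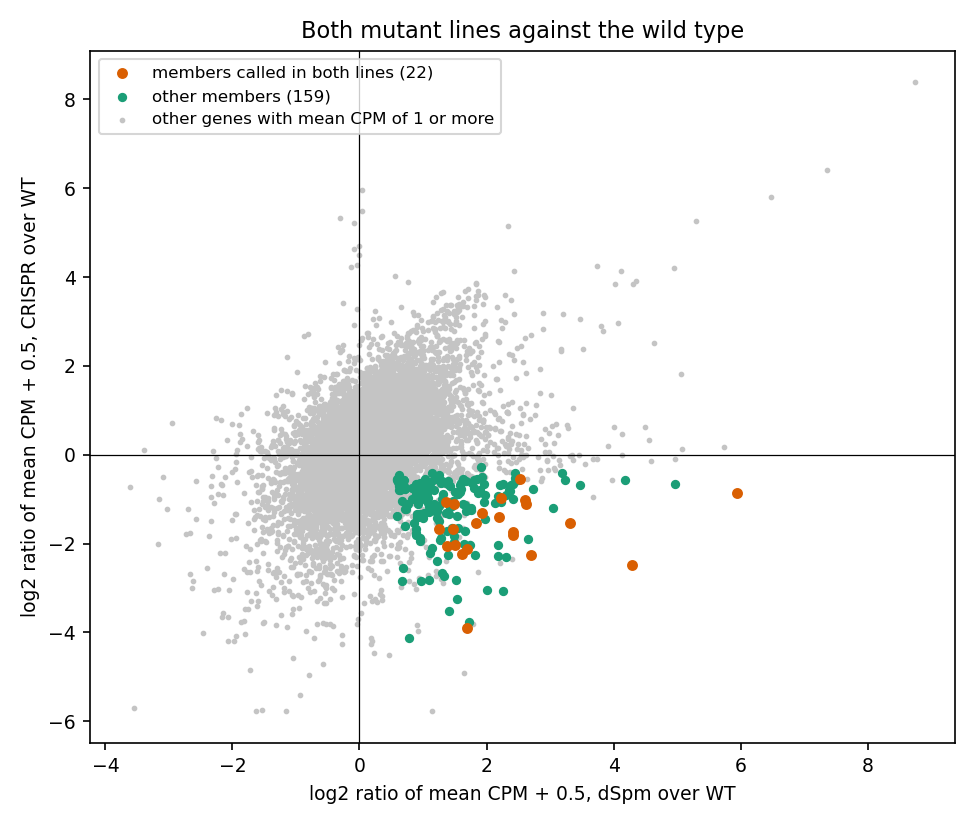
Log2 ratio of mean CPM + 0.5 for dSpm over WT (horizontal) and CRISPR over WT (vertical), one point per gene with a mean of 1 CPM or more. Members fill the lower right part of the plot by construction, and the 22 that edgeR called in both lines are drawn apart from the other 159.

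The rule required every sample of a group to lie on its side of WT, but not how far. Compared with the WT mean, dSpm 1 was at least 1.5 times as high in 164 of the 181 members, dSpm 2 in 165, dSpm 4b in 157 and dSpm 5b in 164. The medians of these ratios were 2.95, 3.03, 2.39 and 2.46 in the same order. CRISPR 1 was past the matching step in 171 members and CRISPR 2 in 170, with medians of 0.326 and 0.324 of the WT mean. The median ratio of the higher to the lower CRISPR sample was 1.31 in the members, wider than the 1.10 over all genes at 1 CPM or more. Genes with 0 counts in a CRISPR sample have no such ratio and were left out. The comparison was not matched for level: the median member averaged 1.39 CPM in CRISPR, and the median of all those genes was 18.4 CPM over the 9 samples.

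LOC_Os09g17560, on chromosome 9, showed the widest separation. It had 48.5, 93.0, 47.6 and 33.2 CPM in dSpm 1, 2, 4b and 5b, no count in CRISPR 1 or 2, and 0.867, 0.154 and 0.207 CPM in WT 1, 2 and 3. Its dSpm mean was 136 times its WT mean, and the lowest dSpm sample was 38.3 times the highest WT sample. With the limit of 3 counts per sample put in for CRISPR, its dSpm mean was at least 1359-fold higher and its WT mean at least 10.02-fold higher than CRISPR. In counts, WT 1, 2 and 3 had 72, 12 and 17, low but above that limit. A count may be more than 1 read, however, so both bounds may be too high. The values of WT 2 and 3 may then rest on few reads. The files, the study and the reference table at hand give it no name or function, and the same is true of the other members except where a list of the study names them.

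LOC_Os06g35520, which the study lists under oxidation-reduction, followed. It had 32.6, 173, 76.7 and 76.3 CPM in dSpm 1, 2, 4b and 5b, and 0.192 and 0.475 CPM in CRISPR 1 and 2, against 2.17, 5.07 and 5.16 CPM in WT 1, 2 and 3. Its dSpm mean was 21.7 times and its CRISPR mean 0.0807 of the WT mean. The lowest dSpm sample was dSpm 1 and the lowest WT sample was WT 1.

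In some of the widest separated members the dSpm step made most of the distance. LOC_Os11g14900 had 22.6, 60.4, 54.3 and 35.1 CPM in dSpm 1, 2, 4b and 5b, and 0.517 and 0.250 CPM in CRISPR 1 and 2, against 1.01, 0.733 and 0.939 CPM in WT 1, 2 and 3. The dSpm mean was 48.2 times the WT mean, whereas the WT mean was 2.33 times the CRISPR mean. LOC_Os11g47580 had 30.8, 83.8, 105 and 75.2 CPM in the dSpm samples, and 2.04 and 2.1 CPM in CRISPR, against 8.43, 6.24 and 6.34 CPM in WT, a dSpm mean 10.5 times the WT mean. LOC_Os03g46100, LOC_Os07g34260 and LOC_Os03g48760, picked after their values were seen, had dSpm means 37.9, 29.7 and 25.2 times their WT means, with WT means of 0.436, 0.198 and 0.355 CPM.

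In others the CRISPR step made most of it. LOC_Os05g11910 had 229, 404, 267 and 311 CPM in dSpm 1, 2, 4b and 5b, and 5.30 and 6.28 CPM in CRISPR 1 and 2, against 139, 69.3 and 72.4 CPM in WT 1, 2 and 3. Its dSpm mean was 3.24 times and its CRISPR mean 0.0620 of the WT mean. It is the member closest to OsMADS58 on chromosome 5, 42 loci further on in the order of the annotation, with 18 genes of at least 1 CPM between them, and the other 10 members on that chromosome lie at least 158 loci away.

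LOC_Os04g40990 had 189, 246, 160 and 160 CPM in dSpm 1, 2, 4b and 5b, and 6.24 and 5.43 CPM in CRISPR, against 155, 106 and 68.3 CPM in WT. WT 1 came within reach of the lowest dSpm samples, and the dSpm mean was 1.72 times the WT mean while the WT mean was 18.8 times the CRISPR mean. LOC_Os01g04050 had 10.5, 27.6, 16.3 and 12.9 CPM in dSpm, and 0 and 0.113 CPM in CRISPR, against 1.54, 2.14 and 2.81 CPM in WT. LOC_Os04g27670 had 0 and 0.0625 CPM in CRISPR, against 3.54, 1.83 and 0.952 CPM in WT. Its WT mean was 67.4 times its CRISPR mean, the highest such ratio among members with a count there. That CRISPR mean, 0.0313 CPM from 0 and 5 counts, is below the 0.0409 CPM of 3 counts per sample, so the ratio is not exact. In LOC_Os05g38530, CRISPR averaged 6.79 ± 0.318 CPM (SD, n = 2) and WT 52.0 ± 5.13 CPM (n = 3), and the dSpm mean of 82.9 ± 20.3 CPM (n = 4) was 1.60 times the WT mean.

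**Figure D3:**
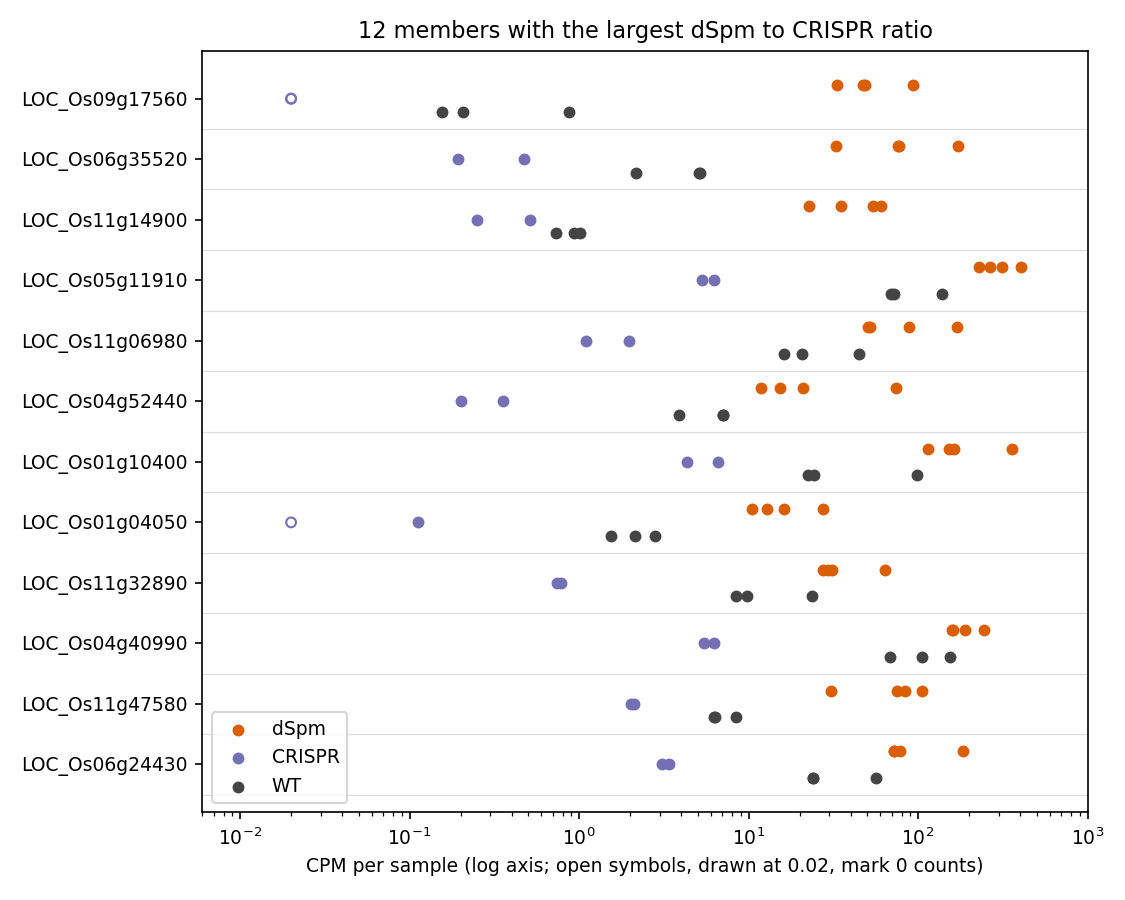
CPM in each sample, on a log axis, of the 12 members with the largest ratio of dSpm to CRISPR means among those averaging at least 5 CPM; filled points are samples of dSpm, CRISPR and WT, and open points mark samples with 0 counts. In LOC_Os09g17560 the dSpm samples lie between 33.2 and 93.0 CPM and the WT samples between 0.154 and 0.867 CPM.

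Of the other genes in that set, LOC_Os11g06980 had 88.9, 170, 52.0 and 51.0 CPM in dSpm 1, 2, 4b and 5b, and 1.98 and 1.10 CPM in CRISPR, against 44.5, 20.6 and 16.2 CPM in WT. LOC_Os01g10400 had 356, 115, 152 and 162 CPM in dSpm, and 4.33 and 6.61 CPM in CRISPR, against 98.9, 24.4 and 22.4 CPM in WT. LOC_Os06g24430 had 184, 72.1, 78.3 and 72.4 CPM in dSpm, and 3.38 and 3.09 CPM in CRISPR, against 56.7, 24.0 and 24.0 CPM in WT. In the last 2 genes sample 1 was the highest of dSpm and also the highest of WT. LOC_Os11g32890 had 63.5, 27.3, 31.2 and 29.3 CPM in dSpm, and 0.782 and 0.738 CPM in CRISPR, against 23.6, 8.48 and 9.85 CPM in WT, with the same samples on top. LOC_Os04g52440 had 15.3, 73.7, 20.9 and 11.9 CPM in dSpm, and 0.354 and 0.200 CPM in CRISPR, against 7.06, 7.03 and 3.87 CPM in WT, so here dSpm 2 led.

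The 10 members with the highest mean levels include LOC_Os05g11910, LOC_Os04g40990 and LOC_Os01g10400 (above), whose dSpm means were 52.3, 32.3 and 35.9 times their CRISPR means. LOC_Os06g06290, the highest of the 10, had 176, 436, 389 and 401 CPM in dSpm 1, 2, 4b and 5b, and 36.6 and 36.9 CPM in CRISPR 1 and 2, against 105, 84.4 and 86.2 CPM in WT 1, 2 and 3. In dSpm 1 it stood apart below the other dSpm samples, yet above all WT samples. LOC_Os07g15959 had 477, 211, 301 and 285 CPM in dSpm, and 23.7 and 16.0 CPM in CRISPR, against 186, 103 and 99.3 CPM in WT, with sample 1 highest in dSpm, CRISPR and WT.

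LOC_Os03g27019 had 358, 235, 240 and 240 CPM in dSpm, and 26.6 and 29.4 CPM in CRISPR, against 144, 111 and 111 CPM in WT. LOC_Os06g38210 averaged 223 ± 82.8 CPM in dSpm, 56.5 ± 1.90 CPM in CRISPR and 111 ± 20.5 CPM in WT. LOC_Os03g03510 averaged 180 ± 35.2 CPM in dSpm, 32.3 ± 1.29 CPM in CRISPR and 78.6 ± 23.3 CPM in WT, and LOC_Os09g26780 averaged 171 ± 26.3, 14.5 ± 2.80 and 60.2 ± 18.7 CPM in dSpm, CRISPR and WT (SD, n = 4, 2 and 3). Across the members as a whole, 14 had a dSpm mean of at least 100 CPM, against 5 with such a mean in WT.

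The study's list of 212 oxidation-reduction genes, enzymes that transfer electrons, holds 6 members, 3.28% of its 183 genes at 1 CPM or more, beside 0.88% of all genes at that level. The study chose that list on these samples, so it is no independent evidence. Besides LOC_Os06g35520 the 6 are LOC_Os01g58194, LOC_Os03g25300, LOC_Os03g55410, LOC_Os03g55420 and LOC_Os04g48200. The study's 18 cell-cycle genes, its 27 meiosis genes, the 30 meiotic genes and the 9 photosynthetic genes hold 0 members. With lists this small, a share of 0.88% would mostly give 0 as well, so nothing is read from it. Over those 183 genes the median dSpm mean was 1.13 times and the median CRISPR mean 0.541 of the WT mean.

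LOC_Os03g55420 had 79.2, 77.6, 107 and 123 CPM in dSpm 1, 2, 4b and 5b, and 7.15 and 5.58 CPM in CRISPR 1 and 2, against 33.0, 24.5 and 30.8 CPM in WT 1, 2 and 3. The next locus, LOC_Os03g55410, had 5.78, 9.40, 14.1 and 12.8 CPM in dSpm, and 0.325 and 0.250 CPM in CRISPR, against 0.891, 0.463 and 0.671 CPM in WT. Both were highest in dSpm 4b or 5b, unlike most members. LOC_Os03g25300 went further that way, with 0.934, 1.27, 6.51 and 6.61 CPM in dSpm and no count in CRISPR, against 0.735, 0.129 and 0.5002 CPM in WT. LOC_Os04g48200 had 6.54, 1.98, 3.92 and 4.15 CPM in dSpm and no count in CRISPR, against 0.120, 0.991 and 0.207 CPM in WT. With 3 counts per sample put in for CRISPR, the dSpm means of LOC_Os03g25300 and LOC_Os04g48200 were at least 93.7-fold and 101-fold higher than CRISPR, and their WT means at least 11.1-fold and 10.7-fold higher. These bounds, too, may be too high, since a count may be more than 1 read. LOC_Os01g58194 had 25.7, 12.6, 12.7 and 11.6 CPM in dSpm, and 2.94 and 2.25 CPM in CRISPR, against 11.6, 5.66 and 8.08 CPM in WT, where the lowest dSpm sample was 1.00 times the highest WT sample, the narrowest gap of all members.

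The lists were also read in the fits over all genes, where a call needs a Benjamini-Hochberg adjusted p under 0.05 and a log2 fold change beyond 1 in either direction. Of all 27251 genes tested by edgeR's quasi-likelihood test, 1.18% were called higher and 0.268% lower in dSpm than in WT, and 2.04% higher and 3.51% lower in CRISPR than in WT. DESeq2 called 3.6% higher and 1.2% lower in dSpm, and 4.76% higher and 6.65% lower in CRISPR. Of the 212 oxidation-reduction genes, edgeR called 19 higher and 10 lower in dSpm, and 21 higher and 62 lower in CRISPR, with median log2 fold changes of 0.16 and -1.09 (medians over all tested genes 0.06 and 0.005). DESeq2 called 46 higher and 26 lower in dSpm, and 54 higher and 112 lower in CRISPR. Of the 206 that are not members, edgeR called 57 lower in CRISPR and 16 higher in dSpm.

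Of the 18 cell-cycle genes edgeR called 0 in dSpm (8 higher and 1 lower at an unadjusted p under 0.05, 2 higher with DESeq2), and in CRISPR it called 5 higher and 2 lower, where DESeq2 called 14 higher and 4 lower. It called 0 of the 27 meiosis genes in dSpm (5 higher and 1 lower at an unadjusted p under 0.05, 0 with DESeq2), and in CRISPR 12 higher and 3 lower, where DESeq2 called 22 higher and 5 lower. Of the 30 meiotic genes it called 0 in dSpm (0 higher and 4 lower at an unadjusted p under 0.05, 0 with DESeq2), and in CRISPR 1 higher and 1 lower, where DESeq2 called 2 higher and 2 lower. Of the 8 photosynthetic genes tested it called 0 in dSpm (1 higher at an unadjusted p under 0.05, 0 with DESeq2) and 1 higher in CRISPR, where DESeq2 called 2 higher. These lists, too, were picked by the study on these samples or named for its questions.

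Some members are neighbours. Of the 181, 11 were next to another member in the order of loci, 6.08%, as 4 pairs and 1 run of 3. By the same count, 4 of the 32 genes of the mirrored order (12.5%) and 0% to 2.63% of the genes of the other 4 orders were next to one of their own order. Such a share depends on the size of the list, and no expected share was computed, so nothing is read from it. On chromosome 11, LOC_Os11g47580 (above) is followed by LOC_Os11g47590, which had 1.51, 3.34, 2.14 and 1.32 CPM in dSpm 1, 2, 4b and 5b, and 0.0738 and 0.0625 CPM in CRISPR, against 0.301, 0.116 and 0.146 CPM in WT. LOC_Os11g47600 comes next, with 2.32, 42.5, 9.14 and 5.37 CPM in dSpm, and 0.384 and 0.225 CPM in CRISPR, against 0.590, 1.24 and 2.22 CPM in WT. Its dSpm samples spanned 18.3-fold, the widest of all members, and dSpm 1 lay just above WT 3.

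The locus after the run, LOC_Os11g47610, had 0, 8.27, 0.477 and 1.11 CPM in dSpm, and 0.650 and 0.525 CPM in CRISPR, against 2.87, 9.51 and 8.16 CPM in WT, and the locus before it, LOC_Os11g47574, had 74.1 to 92.2 CPM in dSpm, 81.2 and 81.9 CPM in CRISPR, and 64.2 to 81.0 CPM in WT. The full pattern did not extend to either. In LOC_Os11g47610 both CRISPR samples lay below every WT sample, but no dSpm sample lay above all WT samples. Reads shared between near-identical copies could not be told apart from the counts, so values of adjacent members may not be independent.

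On chromosome 1, LOC_Os01g02139 and LOC_Os01g02150 had the same dSpm to WT ratio of 2.71. LOC_Os01g02150 had 49.1, 48.9, 29.9 and 26.7 CPM in dSpm, and 4.10 and 6.68 CPM in CRISPR, against 15.5, 14.7 and 12.5 CPM in WT. LOC_Os01g02160, the locus after the pair, had 4.28, 10.6, 8.50 and 6.80 CPM in dSpm, and 0.768 and 1.00 CPM in CRISPR, against 4.94, 3.73 and 4.05 CPM in WT. It is not a member because dSpm 1 lay below WT 1.

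Also on chromosome 1, LOC_Os01g70110 had 286, 239, 148 and 155 CPM in dSpm, and 38.9 and 42.5 CPM in CRISPR, against 123, 104 and 84.6 CPM in WT, and LOC_Os01g70120 had 24.9, 12.5, 4.42 and 5.57 CPM in dSpm, and 0.0591 and 0 CPM in CRISPR, against 2.94, 0.849 and 0.598 CPM in WT. Both had dSpm 1 and 2 above 4b and 5b. The locus before them, LOC_Os01g70100, went the other way in CRISPR, with 32.1 to 54.8 CPM in dSpm, and 98.4 and 104 CPM in CRISPR, against 41.1 to 51.8 CPM in WT. On chromosome 4, LOC_Os04g41560 averaged 119 ± 36.6 CPM in dSpm, 38.1 ± 0.456 CPM in CRISPR and 62.2 ± 6.11 CPM in WT, and LOC_Os04g41570 averaged 57.1 ± 12.6, 7.65 ± 3.09 and 29.3 ± 10.6 CPM.

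**Figure D4:**
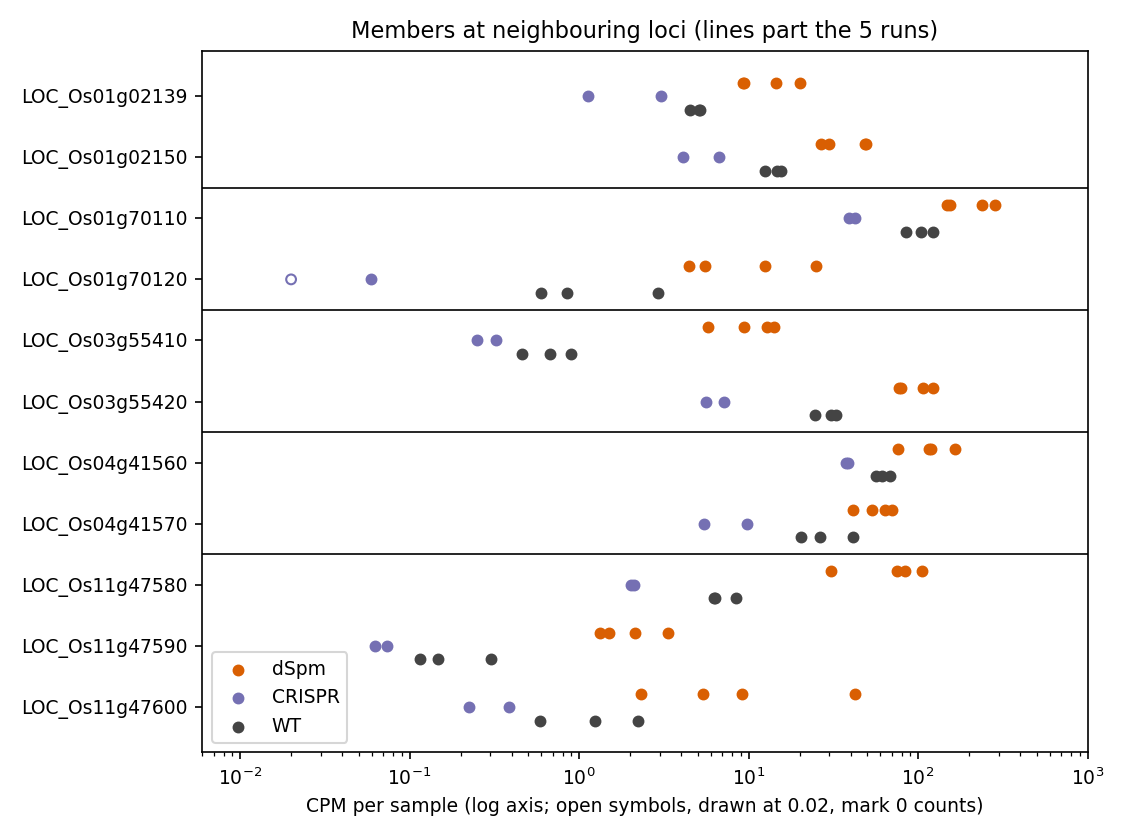
CPM in each sample, on a log axis, of the 11 members that adjoin another member, in locus order with lines between the 5 runs; open points mark samples with 0 counts. Within the run on chromosome 11 the dSpm samples of LOC_Os11g47600 spread from 2.32 to 42.5 CPM.

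The members lay on all 12 chromosomes. Chromosome 1 held 33 (18.2% of members, beside 14.2% of genes at 1 CPM or more), chromosome 11 held 16 (8.84% beside 5.39%) and chromosome 12 held 14 (7.73% beside 5.62%). Chromosome 4 held 11 (6.08% beside 8.60%). Of the 21 other loci that the study's resequencing of CRISPR plants lists as changed, 9 averaged 1 CPM or more and could have been members, and 0 were, beside 0.88% of all genes at that level, so nothing is read from this count. The study's text describes only a few candidate changes, in its line with an inserted A. It reports the genes there as not expressed or not different in expression. How those candidates relate to the listed loci was not examined.

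The 4 dSpm samples led the members unequally. The highest dSpm sample was dSpm 1 in 58 members (32.0%, beside 26.9% of all genes at 1 CPM or more), dSpm 2 in 78 (43.1% beside 26.1%), dSpm 4b in 16 (8.84% beside 23.5%) and dSpm 5b in 29 (16.0% beside 23.5%). Both dSpm 1 and 2 lay above both 4b and 5b in 54 members (29.8% beside 22.6%), and the reverse held in 20 (11.0% beside 36.0%). The median ratio of the highest to the lowest dSpm sample was 2.13 (1.75 over all genes). With dSpm 1 and 2 alone, the mean was at least 1.5 times WT in 175 members, and with 4b and 5b alone in 165. The pairs also differ in the meiotic genes above, and the part of that in the members' spread was not tested.

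dSpm 2 was at least 2 times the next dSpm sample in 14 members (7.73%, beside 3.01% of all genes). LOC_Os06g51060 had 2.62, 33.0, 5.27 and 2.38 CPM in dSpm 1, 2, 4b and 5b, and 0.827 and 1.20 CPM in CRISPR, against 1.71, 1.96 and 1.95 CPM in WT. LOC_Os10g31320 had 80.8, 381, 50.3 and 47.5 CPM in dSpm, and 6.91 and 4.74 CPM in CRISPR, against 19.6, 33.5 and 38.0 CPM in WT. LOC_Os03g08470 had 22.8, 91.0, 16.0 and 16.5 CPM in dSpm, and 2.55 and 3.90 CPM in CRISPR, against 14.5, 14.5 and 9.14 CPM in WT. In these 3 genes, chosen after their values were seen, the lowest dSpm sample lay within 1.5 times of the highest WT sample. By the same measure dSpm 1 led in 5 members (2.76% beside 1.8%), dSpm 4b in 0 (0% beside 0.141%) and dSpm 5b in 1 (0.552% beside 0.175%). That last member, LOC_Os12g32610, had 16.9 CPM in dSpm 5b and 4.10 to 8.13 CPM in the other dSpm samples. Its values were 0.709 and 0.675 CPM in CRISPR, and 1.08 to 1.58 CPM in WT. The narrowest dSpm spread was that of LOC_Os08g32960, with 9.91, 9.51, 9.996 and 9.76 CPM in dSpm, and 1.77 and 2.44 CPM in CRISPR, against 2.63, 4.27 and 3.4 CPM in WT.

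**Figure D5:**
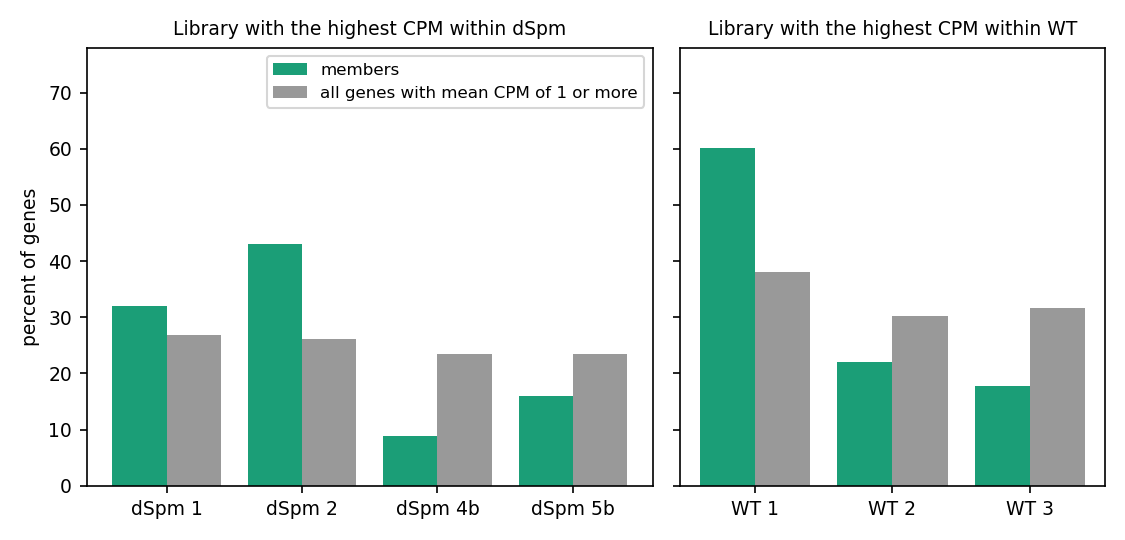
Percent of genes (vertical axis) in which each sample has the highest CPM of its group, for dSpm on the left and WT on the right, in members and in all genes with a mean of 1 CPM or more. Among members dSpm 2 leads in 43.1% and WT 1 in 60.2%.

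WT 1 was the highest WT sample in 109 members (60.2%, beside 38.1% of all genes) and at least 2 times the next WT sample in 21 (11.6% beside 2.75%). In 46 members (25.4% beside 20.2%) sample 1 was highest in dSpm and in WT alike. LOC_Os09g36200 is one, with 53.8, 26.1, 25.2 and 25.0002 CPM in dSpm 1, 2, 4b and 5b, and 2.14 and 2.15 CPM in CRISPR, against 23.1, 6.73 and 6.40 CPM in WT 1, 2 and 3. LOC_Os06g13560 had 34.2, 28.9, 13.2 and 13.6 CPM in dSpm, and 0.842 and 0.625 CPM in CRISPR, against 9.01, 1.83 and 2.78 CPM in WT. Without WT 1 the same thresholds took 307 genes, of which 171 are among the 181, and without WT 1 and dSpm 1 they took 315, of which 172 are.

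The thresholds set the edge of the list. Requiring every dSpm sample above every WT sample left 2555 genes, every WT sample above every CRISPR sample 3961, and both 338, of which 157 fell to the fold steps. Among them, 24 missed only the dSpm step and 50 only the CRISPR step. Just inside the dSpm step was LOC_Os01g20780, with a dSpm mean of 55.1 and a WT mean of 36.5 CPM, a ratio of 1.51, and LOC_Os06g36330 had a ratio of 1.55. Just outside it were LOC_Os03g59620, with 22.3 CPM in dSpm and 14.9 CPM in WT, a ratio of 1.499, and LOC_Os01g68060, with 82.5 CPM in dSpm and 55.1 CPM in WT, a ratio of 1.497. Just inside the CRISPR step were LOC_Os09g01960, with 19.6 CPM in CRISPR and 30.1 CPM in WT, and LOC_Os06g09900, with 16.5 and 25.4 CPM. Just outside it were LOC_Os08g37670, with 5.70 CPM in CRISPR and 8.49 CPM in WT, and LOC_Os02g32469, with 56.6 and 83.8 CPM.

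Of all genes tested, edgeR called 1.18% higher in dSpm than in WT, 3.51% lower in CRISPR than in WT and 3.93% lower in CRISPR than in dSpm. All 181 members were tested, and 52 were called higher in dSpm than in WT, 93 lower in CRISPR than in WT and 178 lower in CRISPR than in dSpm. Nothing is read from these counts, since the same samples chose the members. Split by contrast, 22 were called in both lines, 30 in dSpm only, 71 in CRISPR only, and 58 in neither contrast with WT, of which 55 were called between the 2 mutant lines.

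The 22 are also all the genes of the table that edgeR called higher in dSpm and lower in CRISPR. They include LOC_Os09g17560, LOC_Os06g35520, LOC_Os05g11910, LOC_Os01g04050, LOC_Os11g47580, LOC_Os06g06290, LOC_Os09g26780 and LOC_Os03g55420. LOC_Os05g45450, another of them, had 5.95, 4.69, 8.20 and 5.31 CPM in dSpm 1, 2, 4b and 5b, and 0.0295 and 0.0375 CPM in CRISPR, against 1.08, 0.206 and 0.439 CPM in WT. Its CRISPR values rest on 2 and 3 counts, within the 3 counts taken as the limit for 0, and are not exact. Its WT 2 value rests on 16 counts. LOC_Os02g39360 had 126, 55.6, 114 and 96.0 CPM in dSpm, and 7.13 and 8.31 CPM in CRISPR, against 24.1, 19.0 and 20.2 CPM in WT. LOC_Os01g45700 had 14.6, 20.7, 20.6 and 15.7 CPM in dSpm, and 0.561 and 1.21 CPM in CRISPR, against 2.87, 1.75 and 2.83 CPM in WT. The 3 members called in no comparison were LOC_Os06g51060, LOC_Os10g22860 and LOC_Os11g47870.

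These calls depend on single samples. Without WT 3 the dSpm calls fell to 6 and without WT 2 to 8, without dSpm 4b to 25, without dSpm 5b to 22 and without WT 1 to 34. The CRISPR calls against WT were 4 without CRISPR 2, 7 without CRISPR 1, and 54, 47 and 51 without WT 1, 2 and 3. The calls between the 2 mutant lines were 36 without CRISPR 2 and 54 without CRISPR 1. DESeq2 called 119 members higher in dSpm (3.6% of all genes it tested), 138 lower in CRISPR than in WT (6.65%) and 181 lower in CRISPR than in dSpm (7.2%), from which nothing is read either.

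Scaling bears on the list at both steps. Dividing by column sums put the median gene at 1 CPM or more 0.14 above WT in dSpm and 0.24 above WT in CRISPR on the log2 scale, and with edgeR's TMM factors these medians were 0.03 and -0.007. Under TMM scaling 144 of the 181 members met the same thresholds. Of the 37 that did not, 30 had dSpm and WT samples that overlapped and 10 fell under the dSpm step. The TMM factors were 1.09 and 1.11 in CRISPR and 0.878 to 0.958 in WT, so this scaling could only widen the CRISPR step. That 0 members failed at the CRISPR step was thus fixed in advance and is not read as a result. A wider CRISPR step can also let in genes from outside the list, and the genes taken under TMM are counted in the closing section. The direction of either mean changed in 0 members. In the edgeR fit the median log2 fold change of the members was 1.43 in dSpm against WT, -1.81 in CRISPR against WT and -3.51 in CRISPR against dSpm.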

How the data were processed

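RNA-seq of rice panicles was analysed for 4 osmads58 dSpm, 2 osmads58 CRISPR and 3 wild-type samples. For alignment the authors used HISAT2 2.1.0 and the MSU v7.0 rice genome, and StringTie 1.3.3b for gene levels. The deposited values are estimated counts per gene, whole numbers with no scaling between samples, and how coverage became counts is not stated. Between 37.2% and 40.7% of counts from 1 to 40 per sample were multiples of 4, so a count may be more than 1 read and limits from 3 counts cover counting error only.

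CPM was computed from column sums with pandas 2.3.3 (Python 3.11.15). Counts were fitted with edgeR 4.0.16 in R 4.3.3 (TMM, filterByExpr, glmQLFTest, 1 fit of 9 samples in 3 groups), after tests on simulated data. Alternatives were RLE and upper-quartile factors, other filters and thresholds, DESeq2 1.42.0, only the groups compared, a replicate block, and samples left out. Counts divided by 4, DESeq2 on samples 1 and 2, and WT 1 and dSpm 1 left out together, were added after seeing the data.

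The members and lists were chosen with earlier results of these data known. Named genes are OsMADS58, the 12 members with the largest dSpm to CRISPR ratio (mean CPM + 0.5) among those averaging at least 5 CPM, the 10 with the highest mean, members in a study list or adjoining another member, and the 2 genes on either side of each fold step. Others were named after their values were seen. No identifier matched the RefSeq gene table used, so no names, promoters or sequences are given.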

Additional observations from a re-analysis of the deposited data

Results flagged for a closer look

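Of 51 genes examined for 1 dSpm sample standing apart from the other 3, 12 had a gap to the nearest sample that, divided by the group's range, passed Dixon's 95% critical value for 4 samples. Chance flags about 1 in 20 unselected groups, a rate that does not apply here. The rule chose the members on these dSpm values, and required even the lowest dSpm sample to lie above WT. Besides, 15 of the 51 genes were named after their values were seen, several because 1 sample led them. Nothing is therefore read from the count of 12. dSpm 2 was the high sample in LOC_Os04g52440 (gap 0.854 of the range), LOC_Os11g47600 (0.830), LOC_Os06g51060 (0.906), LOC_Os10g31320 (0.900), LOC_Os04g27670 (0.891) and LOC_Os03g08470 (0.909). dSpm 1 was the high sample in LOC_Os11g32890 (0.891), LOC_Os06g24430 (0.945), LOC_Os03g27019 (0.955), LOC_Os01g58194 (0.922) and LOC_Os09g36200 (0.963). In OsMADS58 (LOC_Os05g11414) dSpm 2 was the low sample at 0.721 CPM (0.830).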

How the results depend on the processing

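The 181 members became 82 with a mean of at least 10 CPM, 114 with steps of 2, 314 with dSpm 1 and 2 only (170 of them members) and 315 without WT 1 and dSpm 1, and 197 to 307 with 1 sample left out. The other alternatives gave 173 (medians) to 268 (dSpm 4b and 5b only), with 193 under TMM (144 shared) and 186 under RLE (138 shared).

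The 52 members called higher in dSpm than in WT became 119 with DESeq2, 0 with edgeR on samples numbered 1 and 2 only (125 at an unadjusted p under 0.05, and 82 with DESeq2 on these samples), 27 with the replicate block, 15 at an adjusted p under 0.01, 17 with dSpm 1 and 2 only, and 6 to 61 with 1 sample left out. The 93 called lower in CRISPR than in WT became 48 with samples numbered 1 and 2 only, 21 at an adjusted p under 0.01, 140 with dSpm 4b and 5b only, and 4 to 112 with 1 sample left out. With the replicate block they were 104. The 178 called lower in CRISPR than in dSpm became 36 to 177 with 1 sample left out and 173 with the block. With 1 CRISPR sample left, that sample is assumed to vary like the other groups. The groups share only the numbers 1 and 2, and same-numbered samples correlated from -0.099 to 0.59, so the numbers were not taken as pairs.

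The direction of the members is fixed by their choice. Of 900 alternatives for the 100 ratios of 50 named genes, 723 moved by less than 1 SD, 177 by more and 0 reversed. The promoter motif counts planned were not run. The cause of these shifts was not tested. CRISPR rests on 2 samples, which limits the precision of its means.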
